A study of Mus musculus with 14 samples.

Results

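The antioxidant and glutathione genes described here are 36 genes of the mouse retinal pigment epithelium (RPE) that encode superoxide dismutases, catalase, glutathione peroxidases, peroxiredoxins, the thioredoxin and glutathione systems, glutathione transferases and the NRF2 pathway. They were chosen by function and matched by gene symbol. All 36 were found among the 42687 genes of the deposited count table, and all 36 passed the filter on low counts in every comparison. RPE cells of both eyes were detached with trypsin from 14 male C57BL/6J mice at 3 months of age, and 1 poly(A) RNAseq library was made per mouse. The 7 KO mice were Best1-Cre+/-; Clic4f/f, in which Cre under the RPE-specific Best1 promoter, active only after birth, deletes the floxed Clic4 gene. Their controls were 3 WT mice (C57BL/6J, neither transgene nor floxed allele), 2 Ctrl mice (Clic4f/f without Cre) and 2 CreCtrl mice (Best1-Cre+/- without floxed alleles). The WT set held 3 KO libraries of its own, and the Ctrl and CreCtrl sets 2 each, assigned by the style of their titles. Gene positions are those of GRCm38. The sets shared no library, so the control genotype and the set cannot be told apart.

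An RPE cell lies between the photoreceptors and the choroidal blood supply, takes up oxidised photoreceptor membranes every day and is exposed to light and high oxygen. Superoxide dismutases turn superoxide into hydrogen peroxide. Catalase, glutathione peroxidases and peroxiredoxins then remove the peroxide. The peroxidases and peroxiredoxins use glutathione and thioredoxin as electron donors, which are regenerated with NADPH. Many of these genes are targets of the transcription factor NRF2 (Nfe2l2), which KEAP1 marks for degradation until oxidants or electrophiles modify KEAP1. NRF2 binds with small MAF proteins to antioxidant response elements.

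Clic4 was lower in every KO library (9.78 to 33.9 CPM) than in every control library (62.1 to 230 CPM). CPM are counts relative to the size of each library, scaled by TMM factors over the 14 libraries. Total counts per library were 9828293 to 32384166, so that 3 counts stood for 0.0926 to 0.305 CPM. All 12 RPE markers reached at least 1 CPM in every library, and the markers of other cell types differed strongly between groups. The summed RPE markers stood at 16006 to 23748 CPM in WT, 48303 to 59373 CPM in the other controls and 74056 to 84087 CPM in KO libraries. The 10 fibroblast markers, of which none was at 0 in any library and 9 reached 1 CPM in all, summed to 7596 to 8077 CPM in WT, 1196 to 2764 CPM in the other controls and 88.2 to 647 CPM in KO. The 16 immediate-early genes, which dissociation of a tissue is known to induce, summed to 15457 to 18282 CPM in WT, 5534 to 11902 CPM in the other controls and 420 to 2576 CPM in KO. KO vs. WT, 10 of 11 myeloid, 8 of 10 endothelial and 5 of 5 erythrocyte markers also fell, and 1 myeloid and 1 of 12 rod markers rose. KO vs. CreCtrl, 9 myeloid, 8 endothelial, 2 erythrocyte and 11 rod markers fell. The myeloid markers Cx3cr1 and Aif1 and the rod markers Pde6b, Cnga1, Nr2e3 and Rp1 were at 0 in at least 1 library. In bulk RNA, fewer cells of a type and less RNA per cell cannot be told apart, and the part of these markers in the results was not tested.

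The antioxidant response element is the sequence feature that the NRF2 pathway reads, so the promoters of the genes were searched for its core TGACNNNGC on both strands. RefSeq promoter windows (GRCm38.p6, 250 bases before to 50 after a transcript's start) were matched by symbol for 29 of the 36 genes. The core was in at least 1 window of 7 of these 29 genes (24.1%), against 14% of all 27025 genes with a window. The matches are shown with their flanking bases because many of these genes are known NRF2 targets, on the gene's own strand, with the core in capitals. The core reads GCNNNGTCA where it lies on the other strand, and a match is a description of letters and not of a bound site.
Sod1: caaggtggGCGTGGTCAgactcagg
Prdx1: gggaaagcGCTGAGTCAtcccccgt
Txnrd1: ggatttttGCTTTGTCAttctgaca
Gclm: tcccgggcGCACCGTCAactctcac
Nfe2l2: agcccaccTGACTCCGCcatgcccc
Srxn1: agtgggcaGCTAGGTCAgagtgaga
Mgst1: ggggcttgGCACGGTCAggaggcgg

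These stretches lie at chr16:90220698-90220722 (Sod1, plus strand), chr4:116685458-116685482 (Prdx1, plus), chr10:82859106-82859130 (Txnrd1, plus), chr3:122245415-122245439 (Gclm, plus), chr2:75704887-75704911 (Nfe2l2, minus), chr2:152105544-152105568 (Srxn1, plus) and chr6:138140463-138140487 (Mgst1, plus). All but the one of Srxn1, whose core starts at base 29 of the transcript, lie before the transcript start of their own window. Those of Txnrd1 and Mgst1 lie inside the gene model, which starts at 82833951 and 138140316. There 1 of 3 windows of Txnrd1 and 1 of 2 of Mgst1 held the core. The 7 genes did not move together. Sod1, Prdx1, Gclm and Mgst1 rose and Srxn1 fell in KO vs. WT, while Txnrd1 and Nfe2l2 did not pass the test there. Cat, Nqo1 and Park7, which rose in the same comparison, hold no such core in their windows, and bases further from a start were not searched.

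KO vs. WT, 21 of the 36 genes passed edgeR's quasi-likelihood test (adjusted p under 0.05 over the 15428 genes tested). Of these, 15 rose (41.7% of the 36) where 16.1% of all genes tested did, and 6 fell (16.7%) where 19.0% did. All genes together had a median of -0.08 on the log2 scale, or -0.32 when scaled by library size alone. With the latter scaling 13 of the 36 genes passed higher and 9 lower, against 1716 and 3942 of the 15428 genes tested. The 36 genes had a median log2 fold change of 0.41. All KO libraries were above all WT libraries for 21 genes (28.7% of all genes tested were) and below for 6 (24.5%). The genes that rose were Sod1, Sod2, Cat, Gpx4, Prdx1, Prdx2, Prdx5, Prdx6, Txn2, Msra, Gclm, Nqo1, Gsta4, Mgst1 and Park7. Those that fell were Sod3, Gpx1, Prdx4, Gclc, Srxn1 and Gstm1.

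KO vs. Ctrl, 0 of the 36 genes and 0 of the 15287 genes tested passed edgeR's test (0% of all genes). An unadjusted p under 0.05 was reached by 6 of the 36 and by 1846 genes in all, and DESeq2 called 2 of the 36, Gpx3 and Slc7a11, and 7.27% of all genes. In the Ctrl set 12 genes had both KO libraries above both Ctrl libraries (18.3% of all genes did) and 7 below (22.7%). The median log2 fold change was 0.09 for the 36 genes and 0.01 for all genes. By library size alone the sign turned, with medians of -0.017 and -0.11.

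KO vs. CreCtrl, 3 of the 36 genes passed. Gclm rose, where 3.60% of the 15963 genes tested did, and Prdx4 and Gstm1 fell, where 12.2% did. Both KO libraries were above both CreCtrl libraries for 26 of the 36 genes, against 37.3% of all genes, and below for 7, against 34.9%. The median log2 fold change of the 36 genes was 0.33 and that of all genes was -0.02. By library size alone the median of all genes was -0.24, and the 3 calls were all on the lower side (Prdx4, Hmox1 and Gstm1). Of all genes, 219 passed higher and 2757 lower with that scaling. The count of calls was 15 without CreCtrl replicate 1, where the share of all genes called was 31% in place of 15.8%. It was 1 without KO replicate 1 (14.8% of all genes) and 1 without KO replicate 2 (7.61%).

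With all 14 libraries and the set as a covariate, 23 of the 36 genes passed, 18 of them higher (50% of the 36, against 18.5% of all 17662 genes tested) and 5 lower (13.9%, against 17.6%). The split was 12 higher and 9 lower by library size alone, against 1499 and 4769 of all 17662 genes. The median of all genes was then -0.29 in place of -0.02. Without the WT set most calls were lost and 2 genes passed, Gclm higher and Prdx4 lower. The share of all genes that passed fell from 36.2% to 6.14%. Across the 3 sets, 12 genes had every KO library above every control library of its own set (Sod1, Sod2, Cat, Gpx4, Prdx2, Txn2, Gclm, Hmox2, Nqo1, Keap1, Msra and Park7), as did 9.56% of the 14423 genes tested in all 3 sets. Prdx4 alone of the 36 was below in all 3 sets, where 10.6% of genes were. The sign of the fold change was the same in the 3 sets for 22 genes, 17 higher and 5 lower (Prdx4, Txn1, Nfe2l2, Srxn1 and Gstm1). In contrast 9 genes passed in none of these comparisons, namely Gpx3, Gpx8, Txnrd1, Txnrd2, Hmox1, Nfe2l2, Slc7a11, Gstp1 and Mgst3.

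**Figure D1:**
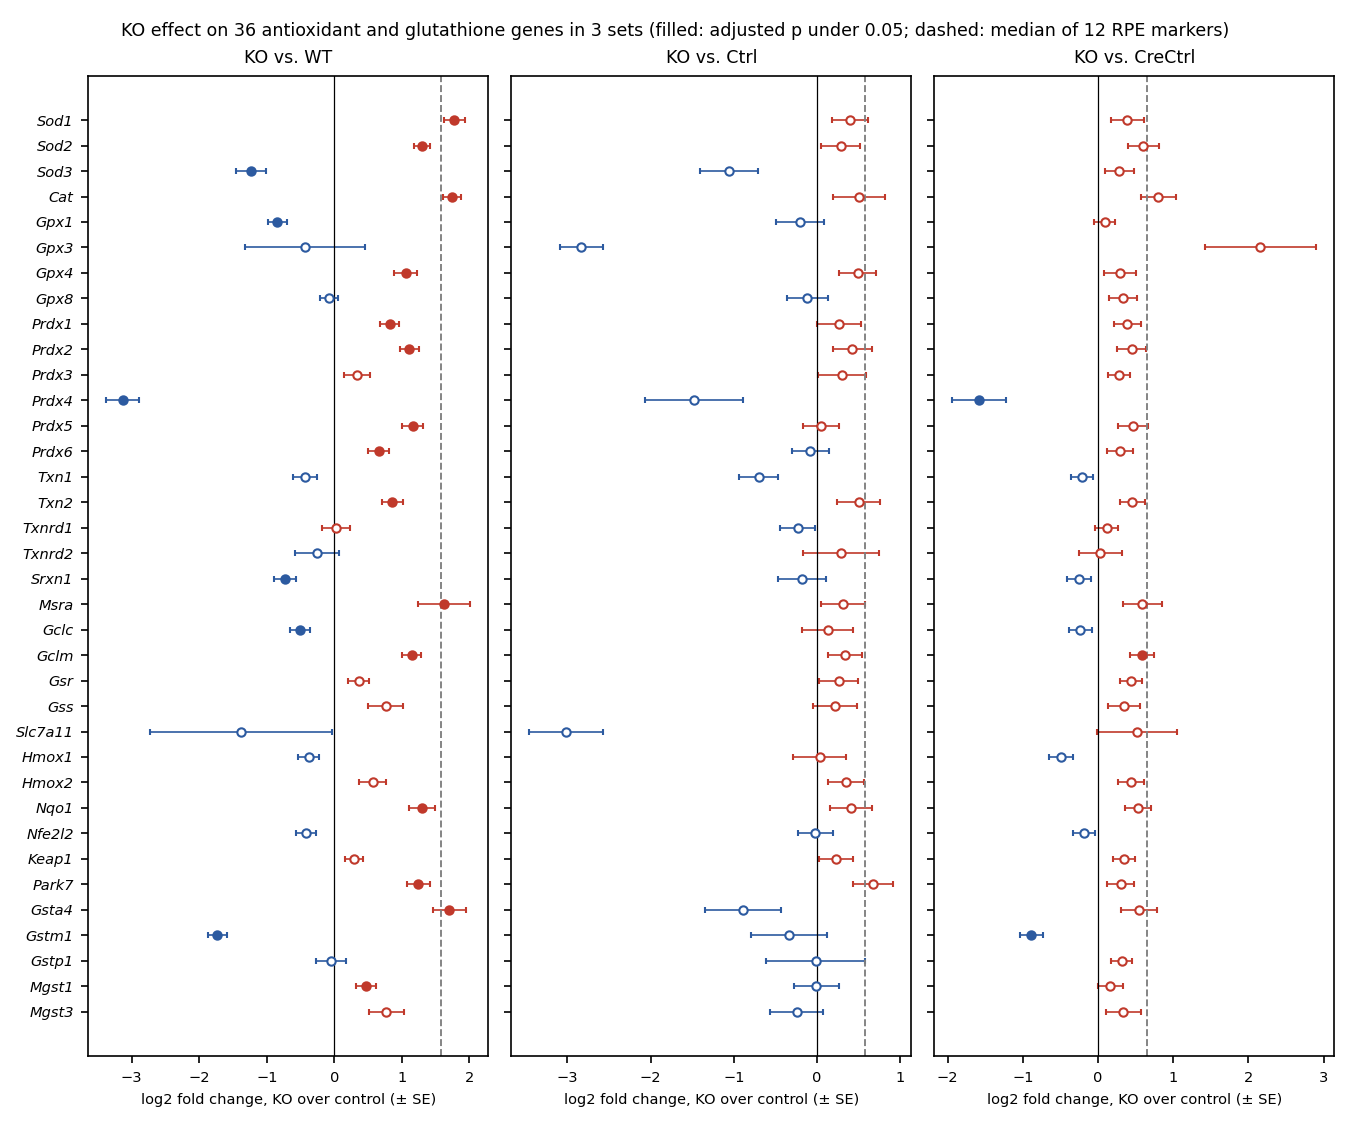
log2 fold change of KO over control (x axis, ± standard error of edgeR's fit) for the 36 genes, grouped by role, in the WT, Ctrl and CreCtrl sets. Red is higher and blue lower in KO, filled points passed at an adjusted p under 0.05 (21, 0 and 3 genes), and the dashed lines mark the median of the 12 RPE markers (1.59, 0.58 and 0.65). Prdx4 is on the lower side in all 3 panels, and most points to the right of 0 lie left of the dashed line.

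Among the superoxide dismutases, Sod1 encodes the copper-zinc enzyme of the cytosol, Sod2 the manganese enzyme of mitochondria and Sod3 the secreted enzyme. Sod1 (ENSMUSG00000022982, chromosome 16 of GRCm38, 90220754 to 90226329) measured 158, 170 and 207 CPM in WT (mean 178 ± 25.7 CPM) and 672, 748 and 610 CPM in the KO libraries of that set (676 ± 69.1 CPM). Means are given with the SD (n = 3) for the WT set. The KO libraries stood far above the WT range, and Sod1 rose 3.43-fold (log2 fold change 1.78, standard error 0.15, adjusted p = 7.44e-05 by edgeR). The Ctrl libraries had 215 and 195 CPM and their KO libraries 264 and 278 CPM, while CreCtrl had 438 and 306 CPM and its KO libraries 482 and 516 CPM. The groups did not overlap in either set, but the log2 fold changes of 0.40 and 0.39 did not pass (adjusted p = 0.614 and 0.226 by edgeR). A processed pseudogene, Gm8566, is 97.8% identical to Sod1 over 465 bases, so reads of both can be exchanged.

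Sod2 (ENSMUSG00000006818, chromosome 17, 13006846 to 13040063) measured 66.3, 62.3 and 71.8 CPM in WT (mean 66.8 ± 4.77 CPM) and 192, 191 and 161 CPM in KO (181 ± 17.6 CPM), a rise of 1.30 on the log2 scale (standard error 0.12, adjusted p = 0.000125 by edgeR). It had 110 and 142 CPM in Ctrl and 157 and 150 CPM in the KO libraries of that set, and 137 and 98.1 CPM in CreCtrl against 171 and 195 CPM in KO. These groups did not overlap, though the KO and Ctrl values lay close together. The log2 fold changes were 0.28 and 0.60, and neither passed (adjusted p = 0.801 and 0.0766 by edgeR). Sod3 went the other way. It measured 111.7, 104 and 83.0 CPM in WT and 55.3, 53.5 and 31.2 CPM in KO, and fell by 1.24 on the log2 scale (standard error 0.22, adjusted p = 0.00271 by edgeR). It was at 122 and 99 CPM in Ctrl against 37.4 and 68.7 CPM in KO, and at 47.8 and 46.8 CPM in CreCtrl against 70.9 and 47.5 CPM in KO. The CreCtrl libraries were already near the KO level and the difference there was 0.28 on the log2 scale. Sod3 also passed with all 14 libraries (log2 fold change -0.69, adjusted p = 0.0364 by edgeR), but not under 12 of 22 alternatives.

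Catalase removes hydrogen peroxide, and the glutathione peroxidases remove hydrogen peroxide and lipid peroxides. Cat (ENSMUSG00000027187, chromosome 2, 103453849 to 103485160, minus strand), the peroxisomal catalase, measured 208, 202 and 255 CPM in WT (mean 222 ± 28.8 CPM) and 790, 868 and 798 CPM in KO (819 ± 42.9 CPM), a 3.34-fold rise (log2 fold change 1.74, standard error 0.14, adjusted p = 6.03e-05 by edgeR). It measured 515 and 806 CPM in Ctrl and 842 and 1027 CPM in KO of that set, and 657 and 463 CPM in CreCtrl and 932 and 1066 CPM in KO. KO libraries were above their controls in each set, although Ctrl replicate 2 reached 806 CPM, close to the lowest KO value. The log2 fold change was 0.50 KO vs. Ctrl and 0.80 KO vs. CreCtrl, and the latter came near the threshold without passing it (adjusted p = 0.694 and 0.0545 by edgeR). In the fit with all 14 libraries it was 1.19 (standard error 0.22, adjusted p = 0.00131 by edgeR).

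Gpx4 (ENSMUSG00000075706, chromosome 10, 80047166 to 80056439), which reduces peroxidised membrane lipids, had the highest level of the 36 genes per length of exon, a median of 620 CPM per kb over the 14 libraries, followed by Cat with 304 CPM per kb. It measured 696, 959 and 1027 CPM in WT (mean 894 ± 175 CPM) and 1992, 2266 and 1912 CPM in KO (2057 ± 186 CPM) and rose by 1.06 on the log2 scale (standard error 0.17, adjusted p = 0.00174 by edgeR). CreCtrl had 1427 and 1112 CPM and its KO libraries 1631 and 1558 CPM. The Ctrl set stood apart, with 221 and 243 CPM in Ctrl and 314 and 336 CPM in KO. KO libraries were above their controls in each set, with log2 fold changes of 0.49 and 0.29 in the Ctrl and CreCtrl sets that did not pass (adjusted p = 0.488 and 0.332 by edgeR). Gpx4-ps2, a transcript 99.7% identical over 733 bases, can share its reads.

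Gpx1, the widespread cytosolic enzyme, measured 180, 223 and 173 CPM in WT and 109, 135 and 110 CPM in KO, and fell by 0.85 on the log2 scale (standard error 0.14, adjusted p = 0.00208 by edgeR). In the other sets its groups were close, at 101 and 125 CPM in Ctrl against 77.2 and 119 CPM in KO, and at 83.2 and 87.5 CPM in CreCtrl against 93.1 CPM in both KO libraries. The fold changes there were -0.21 and 0.09 on the log2 scale, the second of which turned to -0.13 when scaled by library size alone. Gpx8, of the endoplasmic reticulum membrane, stayed within 38.6 to 67.4 CPM over the 14 libraries, with log2 fold changes of -0.08, -0.12 and 0.33 in the 3 sets. Gpx3, the secreted peroxidase of plasma, varied most. It measured 834, 152 and 157 CPM in WT and 428, 465 and 37.5 CPM in KO, so that both groups held high and low libraries. It was at 824 and 689 CPM in Ctrl against 113 and 99.5 CPM in KO, and at 168 and 25.2 CPM in CreCtrl against 555 and 331 CPM in KO, which are opposite directions. The log2 fold changes were -0.44, -2.83 and 2.16, and none passed (adjusted p = 0.752, 0.106 and 0.0805 by edgeR). The difference between the last 2 fold changes did not pass either. Gpx3 passed under 5 of 10 alternatives both in KO vs. Ctrl (lower) and in KO vs. CreCtrl (higher), among them without either control library of the set.

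Peroxiredoxins reduce hydrogen peroxide with thioredoxin, apart from Prdx6, which uses glutathione. Prdx4 (ENSMUSG00000025289, chromosome X, 155323918 to 155340754, minus strand), the peroxiredoxin of the endoplasmic reticulum, showed the largest fold change of the 36 genes in KO vs. WT. It measured 37.7, 37.3 and 33.6 CPM in WT (mean 36.2 ± 2.24 CPM) and 5.51, 3.70 and 4.41 CPM in KO (4.54 ± 0.910 CPM), 8.77-fold lower (log2 fold change -3.13, standard error 0.24, adjusted p = 5.33e-05 by edgeR). It was at 9.35 and 4.24 CPM in Ctrl and 2.54 and 2.33 CPM in KO of that set, and at 5.60 and 8.13 CPM in CreCtrl and 2.40 and 2.29 CPM in KO. The WT libraries were thus above every other library, and KO was below its controls in each set. In KO vs. CreCtrl the log2 fold change was -1.58 (standard error 0.36, adjusted p = 0.0315 by edgeR), but the call was lost without CreCtrl replicate 2 and without either KO library (adjusted p up to 0.107 by edgeR). In KO vs. Ctrl it was -1.48 and did not pass (adjusted p = 0.405 by edgeR). In the fit with all 14 libraries Prdx4 passed under each of the 22 alternatives (log2 fold change -2.15, standard error 0.29, adjusted p = 0.000152 by edgeR). The fibroblast markers moved the same way, with median log2 fold changes of -4.36, -2.94 and -3.44 in the WT, Ctrl and CreCtrl sets and 10 of 10 called lower in the first and the last, and their part in the change of Prdx4 was not tested.

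Prdx1 (ENSMUSG00000028691, chromosome 4, 116685544 to 116700822), of the cytosol, measured 184, 244 and 238 CPM in WT (mean 222 ± 32.9 CPM) and 447, 431 and 419 CPM in KO (432 ± 14.2 CPM), a rise of 0.82 on the log2 scale (standard error 0.14, adjusted p = 0.00237 by edgeR). It had 207 and 161 CPM in Ctrl against 251 and 192 CPM in KO, which overlap, and 321 and 269 CPM in CreCtrl against 378 and 413 CPM in KO. Prdx2 (ENSMUSG00000005161, chromosome 8, 84969587 to 84974834), also cytosolic, measured 129, 171 and 154 CPM in WT (mean 151 ± 21.5 CPM) and 350, 367 and 366 CPM in KO (361 ± 9.61 CPM), a rise of 1.11 (standard error 0.14, adjusted p = 0.000429 by edgeR). Its KO libraries were above their controls in the other sets too, at 207 and 210 CPM against 173 and 137 CPM in Ctrl, and at 274 and 289 CPM against 232 and 172 CPM in CreCtrl. The log2 fold changes of Prdx1 and Prdx2 were 0.27 and 0.42 in the Ctrl set and 0.39 and 0.45 in the CreCtrl set, and none of the 4 passed. Prdx2 shares 5.67% of its exon bases with the immediate-early gene Junb and 5.8% with Rnaseh2a, both on the other strand.

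Prdx5 (ENSMUSG00000024953, chromosome 19, 6906697 to 6910106, minus strand), found in mitochondria and peroxisomes, measured 110.0, 151 and 149.7 CPM in WT (mean 137 ± 23.2 CPM) and 336, 348 and 328 CPM in KO (337 ± 9.71 CPM) and rose by 1.16 on the log2 scale (standard error 0.15, adjusted p = 0.000542 by edgeR). In Ctrl it stood at 195 and 227 CPM and in KO of that set at 214 and 223 CPM, which is the same range. In CreCtrl it stood at 218 and 156 CPM and in KO at 275 and 254 CPM. Of its exon bases, 19.1% are shared with Trmt112 on the other strand, and without a stated strand setting the reads of both cannot be told apart. Prdx6 measured 146, 205 and 149.1 CPM in WT and 293, 309 and 269 CPM in KO, and its rise of 0.66 (adjusted p = 0.0108 by edgeR) no longer passed when scaled by library size alone. Its groups overlapped in the Ctrl set, at 275 and 318 CPM in Ctrl and 280.04 and 282 CPM in KO (log2 fold change -0.08), and stood at 232 and 188 CPM in CreCtrl and 268 and 259.6 CPM in KO (0.29), and neither passed. Prdx3, of mitochondria, differed by 0.34, 0.30 and 0.28 on the log2 scale in the 3 sets, each below the threshold. Over all 14 libraries it passed (log2 fold change 0.38, adjusted p = 0.0243 by edgeR), but not under 9 of 22 alternatives.

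The thioredoxin system supplies electrons to peroxiredoxins and repairs oxidised proteins. Txn2 (ENSMUSG00000005354, chromosome 15, 77915047 to 77929006, minus strand), the mitochondrial thioredoxin, measured 88.5, 125 and 123 CPM in WT (mean 111.97 ± 20.3 CPM) and 212, 244 and 218 CPM in KO (225 ± 17.3 CPM), and rose by 0.86 on the log2 scale (standard error 0.16, adjusted p = 0.00318 by edgeR). It was higher in KO than in every control of its set elsewhere as well, at 190 and 273 CPM against 160 and 167 CPM in Ctrl, and at 229 and 207 CPM against 171 and 139 CPM in CreCtrl. The log2 fold changes of 0.50 and 0.46 did not pass (adjusted p = 0.597 and 0.0982 by edgeR). Txn1, the cytosolic thioredoxin, was on the lower side, with log2 fold changes of -0.43, -0.70 and -0.21 that did not pass. Over all 14 libraries Txn1 fell by 0.37 (adjusted p = 0.0239 by edgeR), a call lost under 7 of 22 alternatives. Their reductases Txnrd1 (cytosolic) and Txnrd2 (mitochondrial) measured 61.3 to 108 CPM and 5.39 to 13.4 CPM over the 14 libraries. In that fit both had a log2 fold change of 0.05 with standard errors of 0.12 and 0.20, which was below 0 with RLE factors and with library size alone.

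Srxn1, sulfiredoxin, reactivates overoxidised peroxiredoxins. It measured 53.1, 52.6 and 53.7 CPM in WT and 37.9, 39.6 and 28.7 CPM in KO, and fell by 0.73 on the log2 scale (standard error 0.16, adjusted p = 0.00744 by edgeR). In the other sets it was at 36.7 and 50.2 CPM in Ctrl against 32.6 and 44.3 CPM in KO and at 38.4 and 45.9 CPM in CreCtrl against 35.9 and 36.6 CPM in KO, with log2 fold changes of -0.18 and -0.25 that did not pass. Msra, which reduces methionine sulfoxide in proteins, measured 3.77, 8.95 and 11.5 CPM in WT and 29.7, 27.4 and 25.7 CPM in KO. It rose by 1.62 on the log2 scale (standard error 0.39, adjusted p = 0.0117 by edgeR), with the widest error among the genes that rose. KO libraries were above their controls in the other sets also, at 22.2 and 22.9 CPM against 16.8 and 19.5 CPM in Ctrl and at 22.1 and 23.3 CPM against 18.3 and 11.0 CPM in CreCtrl. Its 7 KO libraries lay between 22.1 and 29.7 CPM and its 7 control libraries between 3.77 and 19.5 CPM.

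Glutathione is made from cysteine by glutamate-cysteine ligase and then glutathione synthetase. Gclm (ENSMUSG00000028124, chromosome 3, 122245557 to 122270732), the modifier subunit of the ligase, was the single gene of the 36 that rose in KO vs. both WT and CreCtrl. It measured 36.9, 40.0 and 44.5 CPM in WT (mean 40.5 ± 3.83 CPM) and 87.3, 108 and 101 CPM in KO (98.8 ± 10.7 CPM), a 2.21-fold rise (log2 fold change 1.14, standard error 0.14, adjusted p = 0.000424 by edgeR). It measured 93.0 and 80.6 CPM in CreCtrl and 127 and 139 CPM in KO, a rise of 0.58 on the log2 scale (standard error 0.16, adjusted p = 0.0478 by edgeR). The Ctrl libraries had 108 and 111 CPM and their KO libraries 139 and 136 CPM, and the log2 fold change of 0.34 did not pass (adjusted p = 0.685 by edgeR). Every KO library was therefore above the controls of its set, and the spread within each group was small. The CreCtrl call lay close to the threshold and was lost by library size scaling (log2 fold change 0.36). It was lost under 5 of 10 alternatives, among them without CreCtrl replicate 2 and without either KO library (adjusted p up to 0.281 by edgeR). In the fit with all 14 libraries Gclm passed under each of the 22 alternatives (log2 fold change 0.82, standard error 0.14, adjusted p = 0.00079 by edgeR).

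Gclc, the catalytic subunit of the same ligase, did not follow Gclm. It measured 103, 103 and 75.4 CPM in WT and 66.9, 71.8 and 79.7 CPM in KO, groups that overlap, and its fall of 0.51 on the log2 scale (standard error 0.15, adjusted p = 0.0317 by edgeR) was lost under 8 of 12 alternatives, among them leaving out WT replicate 1 or 2 or any 1 KO library. Its log2 fold changes in the Ctrl and CreCtrl sets were 0.13 and -0.24. Gss, glutathione synthetase, just missed the threshold in KO vs. WT (log2 fold change 0.76, adjusted p = 0.0503 by edgeR) and had 0.21 and 0.34 in the other sets. Over all 14 libraries Gss rose by 0.56 (adjusted p = 0.0174 by edgeR), a call lost under 4 of 22 alternatives. Gsr (ENSMUSG00000031584, chromosome 8, 33652523 to 33698163), which regenerates reduced glutathione, measured 44.5, 37.8 and 41.5 CPM in WT (mean 41.2 ± 3.36 CPM) and 55.7, 53.7 and 65.6 CPM in KO (58.3 ± 6.40 CPM). It was at 50.3 and 64.1 CPM in Ctrl against 64.0 and 72.9 CPM in KO, and at 45.8 and 47.2 CPM in CreCtrl against 61.8 and 67.5 CPM in KO. The log2 fold changes of 0.36, 0.26 and 0.44 were alike in the 3 sets and none passed alone, whereas the fit with all 14 libraries gave 0.42 (standard error 0.10, adjusted p = 0.00386 by edgeR).

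Slc7a11, the cystine transporter subunit that supplies cysteine for glutathione, was the lowest of the 36 genes per length, with a median of 0.374 CPM per kb. It measured 16.3, 7.49 and 0.822 CPM in WT and 4.90, 5.52 and 0 CPM in KO, 11.8 and 16.02 CPM in Ctrl and 1.89 and 1.55 CPM in KO, and 6.11 and 2.29 CPM in CreCtrl and 8.34 and 4.14 CPM in KO. The count of 0 allows a level of up to 0.185 CPM. Libraries of 1 group differed many-fold, as for Gpx3, and KO was below its controls in the Ctrl set alone. The log2 fold changes were -1.38, -3.01 and 0.51 (adjusted p = 0.483, 0.106 and 0.507 by edgeR). In KO vs. Ctrl it passed with DESeq2, with no filter on low counts, and without Ctrl replicate 1.

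Of NRF2, its regulators and its haem and quinone targets, the transcript of the factor itself varied least of the 36 genes. Nfe2l2 lay between 78.3 and 121 CPM in all 14 libraries, with log2 fold changes of -0.42, -0.02 and -0.19 in the 3 sets, none past the threshold (adjusted p = 0.0532, 0.988 and 0.364 by edgeR). Keap1 (ENSMUSG00000003308, chromosome 9, 21229730 to 21239361, minus strand) measured 52.4, 59.5 and 63.3 CPM in WT (mean 58.4 ± 5.52 CPM) and 73.7, 83.9 and 79.1 CPM in KO (78.9 ± 5.13 CPM), 60.4 and 63.2 CPM in Ctrl and 70.8 and 73.9 CPM in KO, and 58.1 and 63.0 CPM in CreCtrl and 79.8 and 77.6 CPM in KO. KO libraries were above every control library, by a small margin. Its log2 fold changes of 0.29, 0.23 and 0.34 did not pass within a set, and the fit with all 14 libraries gave 0.36 (standard error 0.08, adjusted p = 0.00379 by edgeR). Keap1 shares 10.9% of its exon bases with the antisense gene Gm16754. This pooled call of Keap1, like those of Gsr and Hmox2, was lost without the WT set and with library size alone.

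Nqo1 (ENSMUSG00000003849, chromosome 8, 107388225 to 107403206, minus strand), the quinone reductase often read as an NRF2 target, measured 74.0, 86.4 and 120 CPM in WT (mean 93.6 ± 24.0 CPM) and 237, 289 and 240 CPM in KO (255 ± 28.7 CPM), and rose by 1.30 on the log2 scale (standard error 0.19, adjusted p = 0.0011 by edgeR). It was at 177 and 134 CPM in Ctrl against 221 and 192 CPM in KO and at 178 and 142 CPM in CreCtrl against 231 and 243 CPM in KO. All KO libraries were above their controls, and the log2 fold changes of 0.41 and 0.53 did not pass (adjusted p = 0.685 and 0.0764 by edgeR). Hmox1, the inducible haem oxygenase and another NRF2 target, was on the other side, at 42.8, 42.9 and 49.4 CPM in WT against 33.2, 41.6 and 39.9 CPM in KO and at 32.7 and 31.5 CPM in CreCtrl against 24.9 and 21.8 CPM in KO. These groups did not overlap, and neither log2 fold change (-0.38 and -0.50) passed (adjusted p = 0.102 and 0.0714 by edgeR), although both did when scaled by library size alone. In the Ctrl set Hmox1 had 29.6 and 31.0 CPM in Ctrl and 23.4 and 38.7 CPM in KO.

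Hmox2 (ENSMUSG00000004070, chromosome 16, 4726361 to 4766742), the constitutive haem oxygenase, measured 44.4, 41.7 and 28.6 CPM in WT (mean 38.3 ± 8.43 CPM) and 65.7, 72.3 and 49.3 CPM in KO (62.5 ± 11.8 CPM), 51.5 and 55.0 CPM in Ctrl and 62.3 and 73.3 CPM in KO, and 50.2 and 37.5 CPM in CreCtrl and 60.1 and 61.8 CPM in KO. KO was higher in each set, with log2 fold changes of 0.57, 0.35 and 0.44 of which none passed, and 0.54 with all 14 libraries (standard error 0.13, adjusted p = 0.00569 by edgeR). Hmox2 shares 40.2% of its exon bases with Cdip1 on the other strand and is therefore uncertain. Park7, or DJ-1 (ENSMUSG00000028964, chromosome 4, 150897133 to 150914437, minus strand), a redox sensor that protects mitochondria, measured 146, 180 and 225 CPM in WT (mean 184 ± 39.9 CPM) and 469.4, 506 and 466.2 CPM in KO (481 ± 22.0 CPM), a rise of 1.24 (standard error 0.17, adjusted p = 0.00075 by edgeR). It had the highest log2 fold change of the 36 genes in the Ctrl set, 0.67 (standard error 0.24, adjusted p = 0.34 by edgeR), with 234 and 191 CPM in Ctrl and 312 and 366 CPM in KO. CreCtrl had 310 and 250 CPM and its KO libraries 351 and 357 CPM, a log2 fold change of 0.30 that did not pass.

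Glutathione transferases couple glutathione to electrophiles and moved in both directions. Gstm1 (ENSMUSG00000058135, chromosome 3, 108012255 to 108017973, minus strand), of the mu class, measured 205, 208 and 178 CPM in WT (mean 197 ± 16.3 CPM) and 73.9, 66.3 and 56.3 CPM in KO (65.5 ± 8.82 CPM), and fell 3.32-fold (log2 fold change -1.73, standard error 0.14, adjusted p = 5.57e-05 by edgeR). It measured 75.6 and 88.9 CPM in CreCtrl and 46.5 and 44.4 CPM in KO and fell by 0.89 on the log2 scale (standard error 0.15, adjusted p = 0.014 by edgeR), a call lost without KO replicate 2 (adjusted p = 0.0545 by edgeR) and with all 14 libraries in 1 fit (adjusted p = 0.122 by edgeR). In the Ctrl set the groups overlapped, with 90.2 and 52.0 CPM in Ctrl and 35.4 and 77.4 CPM in KO, and the log2 fold change of -0.34 did not pass (adjusted p = 0.905 by edgeR). As for Prdx4, the WT libraries were above every other library.

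Gsta4, which conjugates the aldehydes of lipid peroxidation, measured 108, 221 and 138 CPM in WT and 553, 624 and 503 CPM in KO and rose by 1.70 on the log2 scale (standard error 0.25, adjusted p = 0.000953 by edgeR). The 2 Ctrl libraries differed widely, at 386 and 986 CPM, and both lay above their KO libraries at 367 and 374 CPM. The log2 fold change was -0.89 there and 0.54 in the CreCtrl set (352 and 224 CPM in CreCtrl, 422 and 437 CPM in KO), and neither passed (adjusted p = 0.588 and 0.137 by edgeR). Mgst1, a microsomal transferase, rose by 0.47 in KO vs. WT (adjusted p = 0.0428 by edgeR), a call lost under 5 of 12 alternatives, 4 of which leave out WT replicate 1 or 3 or KO replicate 1 or 2. It differed by -0.01 and 0.16 in the other sets, both of which changed sign under another scaling. Mgst3 measured 10.01 to 16.3 CPM in WT and 22.0 to 24.8 CPM in KO, with a log2 fold change of 0.77 that did not pass. Gstp1, of the pi class, had log2 fold changes of -0.05, -0.02 and 0.31, none of which passed.

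**Figure D2:**
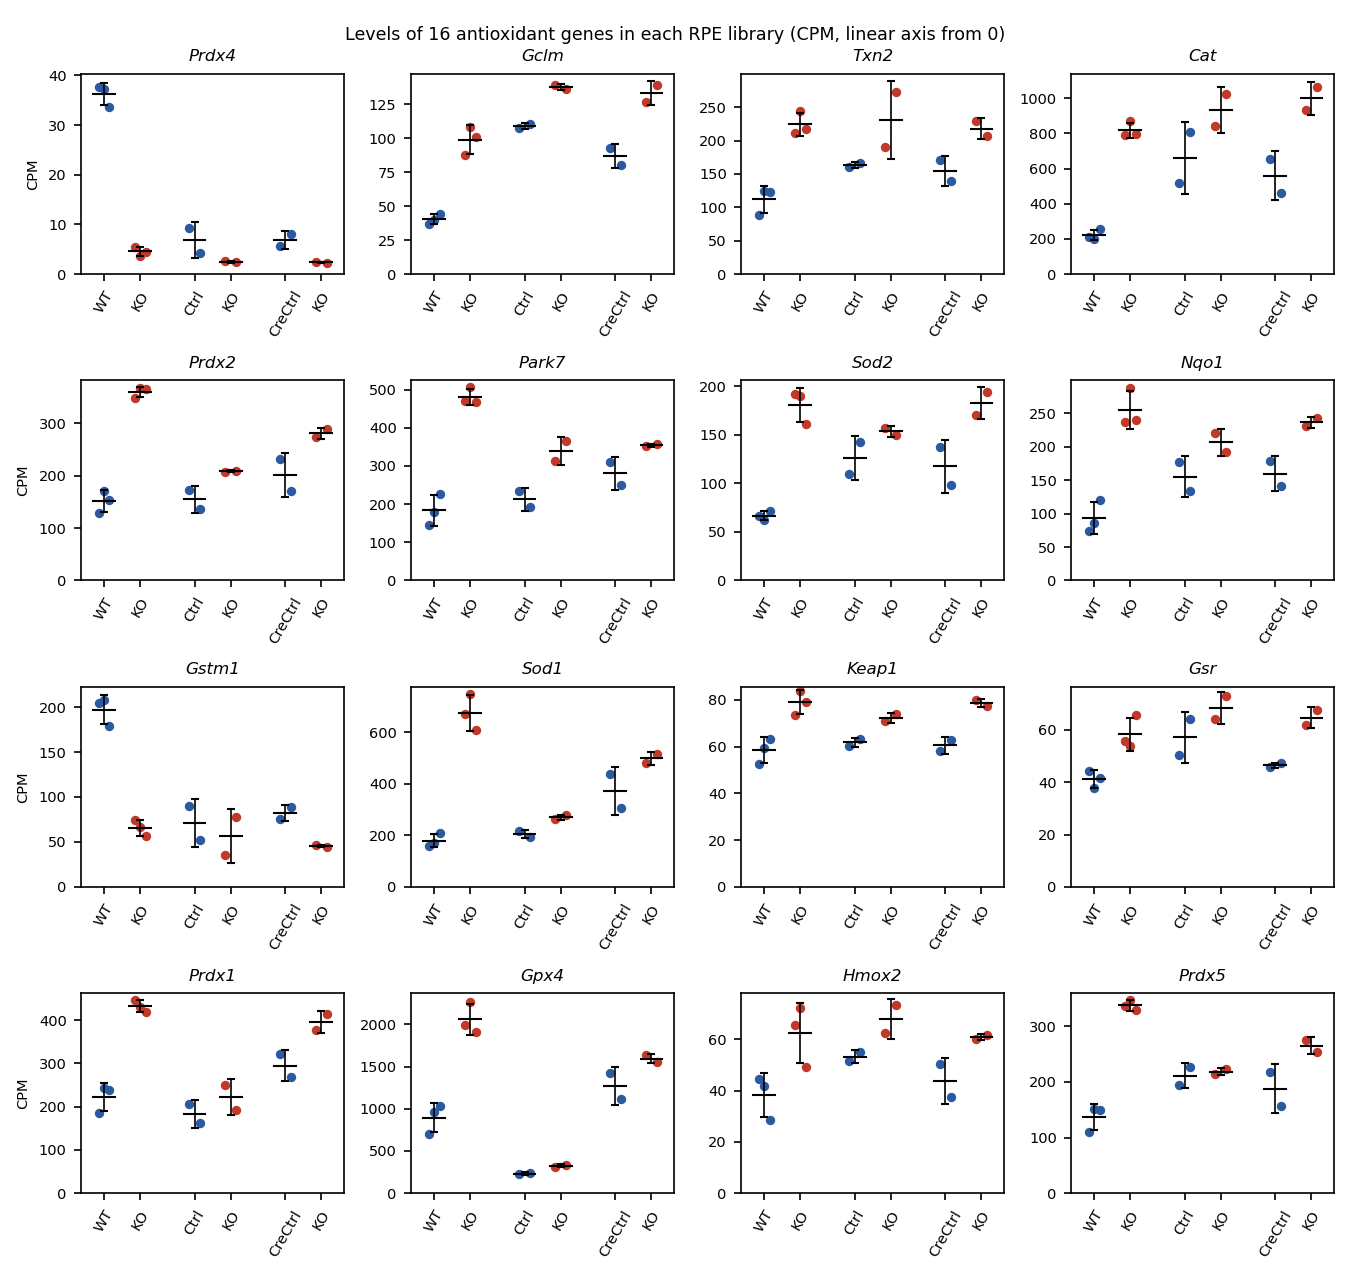
CPM (y axis, linear from 0, TMM over 14 libraries) of the 16 genes with the smallest adjusted p with all 14 libraries, by group on the x axis. Blue points are control and red points KO libraries, and bars are means ± SD (n = 3 in the WT set and 2 in the others). In all but Prdx4 and Gstm1 the KO means stand above their controls in each set, and the gap is widest in the WT set for most of them, with WT Cat at 202 to 255 CPM and its KO libraries at 790 to 868 CPM.

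The RPE markers themselves stood higher in KO libraries. Their median log2 fold change was 1.59 KO vs. WT, where 11 of 12 rose, 0.58 KO vs. Ctrl, where 0 passed, and 0.65 KO vs. CreCtrl, where 1 rose. The geometric mean of the 12 markers averaged 503 ± 73.3 CPM for WT against 1484 ± 75.9 CPM for KO (SD, n = 3 each). It averaged 1255 ± 134 CPM for Ctrl against 1712 ± 140 CPM for KO, and 1190 ± 178 CPM for CreCtrl against 1665 ± 68.7 CPM for KO (SD, n = 2 each). Most of the antioxidant genes that rose did so by less than these markers. The marker median was exceeded by 4 of the genes KO vs. WT (Sod1, Cat, Gsta4 and Msra), by 1 KO vs. Ctrl (Park7) and by 2 KO vs. CreCtrl (Cat and Gpx3).

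Each library's level was therefore also divided by its RPE marker level, as a description with no test. Per geometric mean of the 12 markers, all KO libraries of the WT set were above WT for 2 of the 36 genes, Sod1 and Cat (1.73% of all genes tested were above), and below for 28 (76.7%), with 6 overlapping. Sod1 stood at 0.335 to 0.370 in WT and 0.405 to 0.484 in KO, and Cat at 0.399 to 0.486 in WT and 0.530 to 0.565 in KO. In the Ctrl set 0 genes were above (1.75% of all genes), 20 were below (51.8%) and 16 overlapped. In the CreCtrl set 5 were above (Sod2, Cat, Gpx3, Gclm and Nqo1, against 9.47% of all genes), 16 were below (63.9%) and 15 overlapped. Gclm, higher per CPM in each set, was below in the WT set (0.0775 to 0.0862 in WT, 0.0624 to 0.0702 in KO), overlapped in the Ctrl set and was above in the CreCtrl set (0.0707 to 0.0757 in CreCtrl, 0.0785 to 0.0814 in KO). The median log2 ratio of the 36 genes was -1.02, -0.36 and -0.12 in the WT, Ctrl and CreCtrl sets, and that of all genes was -1.51, -0.44 and -0.49. Per sum of the markers, 0, 0 and 4 genes were above (0.687%, 0.752% and 9.43% of all genes) and 32, 27 and 15 below (83.8%, 68.9% and 64.8%), and Sod1 and Cat were no longer above in the WT set. On both scales 8 genes were below in all 3 sets, namely Gpx1, Prdx4, Prdx6, Txn1, Txnrd1, Hmox1, Nfe2l2 and Srxn1. The share of all genes below in all 3 sets was not counted. Within single sets 51.8% to 83.8% of all genes were below. Whether these 8 stand apart from other genes was not tested.

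**Figure D3:**
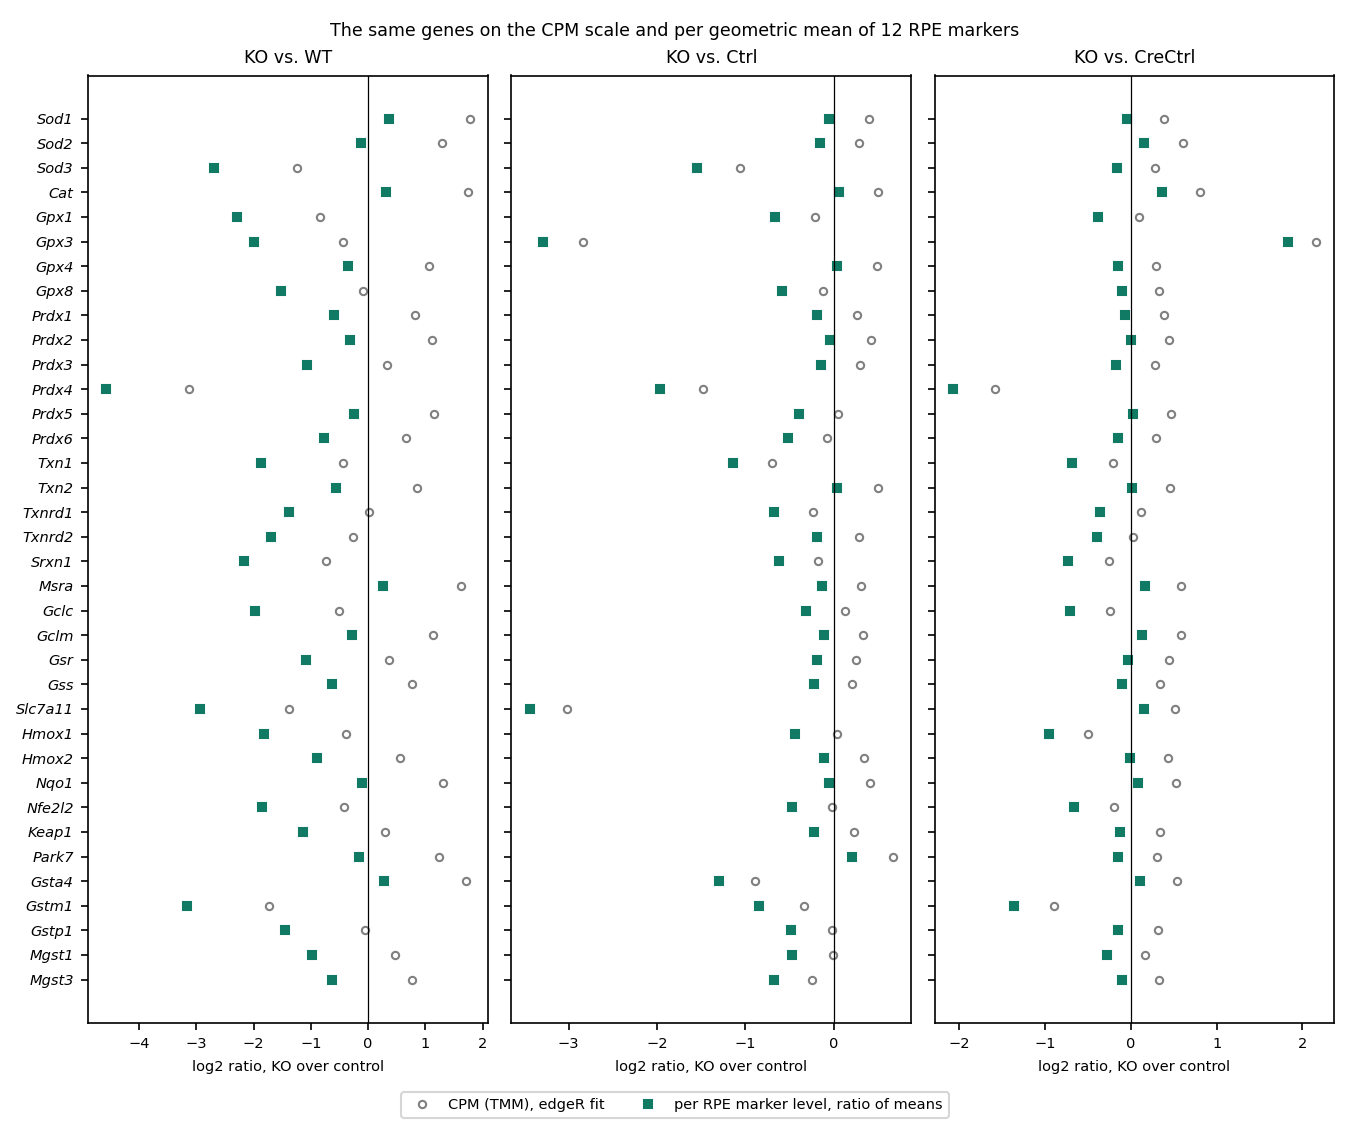
log2 ratio of KO over control (x axis) for the 36 genes in each set, from edgeR's fit on TMM-scaled counts (open circles) and as the ratio of group means after division by the geometric mean of 12 RPE markers (green squares). The squares lie left of the circles in each panel, with medians of -1.02, -0.36 and -0.12 for the squares.

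The KO effects differed between sets for some genes. In a fit of all 14 libraries as 6 groups, the effect was larger in the WT set than in the Ctrl set for 6 of the 36 genes (4.34% of all genes tested were larger there), namely Sod1, Sod2, Cat, Prdx5, Gclm and Gsta4, and smaller for 0 (0.810%, or 5.15% in either direction). The differences of their log2 fold changes were 1.52 for Sod1, 1.16 for Sod2, 1.39 for Cat, 1.25 for Prdx5, 0.95 for Gclm and 2.74 for Gsta4, with standard errors of 0.26, 0.24, 0.31, 0.25, 0.20 and 0.51 (adjusted p = 0.0117 to 0.0245 by edgeR). The count was 3 without KO replicate 2 of the WT set, where 2.06% of all genes passed in either direction. Leaving out replicate 2 of Ctrl or of its KO libraries left 1 library in that group, and the 6 calls are not shown to hold without it. The median difference of the 36 genes was then 0.50 or 0.51. Against the CreCtrl set the effect was larger in the WT set for Sod1 alone (difference 1.499, standard error 0.26, adjusted p = 0.0217 by edgeR, where 1.12% of all genes were larger and 1.49% passed in either direction). That call was lost without WT replicate 2, KO replicate 2 of the WT set, CreCtrl replicate 1 or either KO library of the CreCtrl set. Between the Ctrl and CreCtrl sets 0 of the 36 genes and 0% of all genes passed by edgeR, and 0 of the 36 by DESeq2, with 3 at an unadjusted p under 0.05. The median difference of all genes between the WT and Ctrl sets was itself 0.14 on the log2 scale and that of the 36 genes 0.56. With RLE factors the median of the 36 genes was 0.41, that of all genes was about 0, and the count was again 6.

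Levels in the Ctrl set also differed from those in the other sets irrespective of genotype. Gpx4 (221 to 336 CPM in the 4 libraries of the Ctrl set, 696 to 2266 CPM in the other 10) and Gstp1 (8.18 to 20.5 CPM against 34.8 to 63.5 CPM) were lower in all 4, as were 2.12% of all genes. In the KO libraries, which share a genotype across sets, those of the Ctrl set were below the other 5 for 11 of the 36 genes (Sod1, Sod2, Gpx4, Gpx8, Prdx1, Prdx2, Prdx5, Txn1, Nqo1, Gsta4 and Gstp1), against 9.69% of all genes, and above for 0 (4.99%). Sod1, for example, was at 264 and 278 CPM in these KO libraries and at 482 to 748 CPM in the other 5. Among these 11 genes, 7 have a transcript of another gene at least 95% identical over at least 200 bases (Gpx4, Gstp1, Prdx1, Prdx2, Prdx5, Sod1 and Txn1), as have 4 of the other 25 (Gstm1, Hmox2, Keap1 and Slc7a11). For Prdx5, Hmox2 and Keap1 this is a gene that overlaps on the other strand, and those of Gpx4 are not among the counted genes. The share of all genes with such a transcript was not counted. The processed pseudogene Gstp-ps, 97.6% identical to Gstp1 over 631 bases, had 0 counts in all 4 libraries of the Ctrl set and 16 to 57 counts in the other 10. Trmt112, which overlaps Prdx5, had 64 to 114 counts against 260 to 714. Whether read assignment had a part in these levels was not tested.

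**Figure D4:**
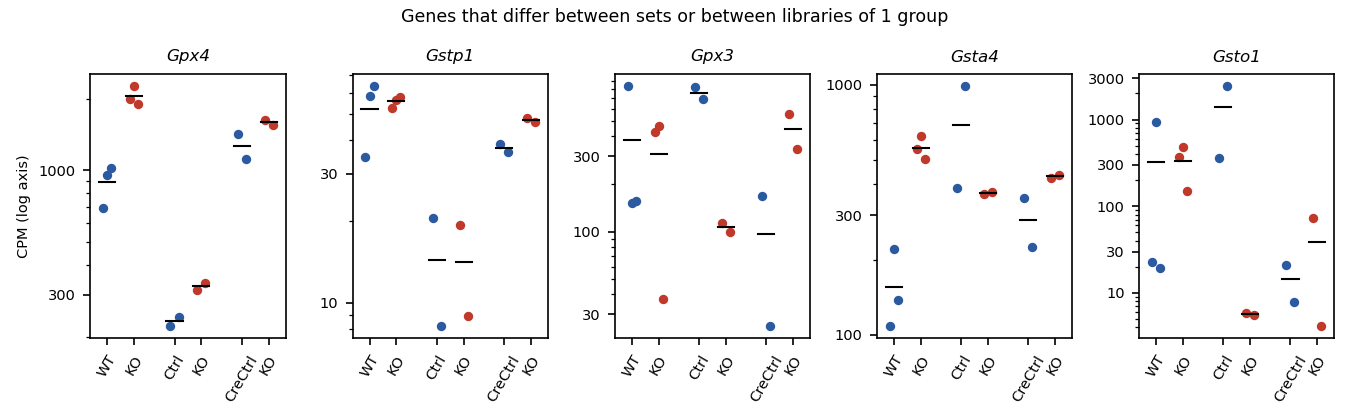
CPM (y axis, log scale, TMM over 14 libraries) of Gpx4, Gstp1, Gpx3, Gsta4 and, from the wider list, Gsto1, by group on the x axis, with control libraries in blue, KO libraries in red and black lines for group means. Gpx4 and Gstp1 are lowest in all 4 libraries of the Ctrl set, while Gpx3 and Gsto1 differ many-fold between libraries of 1 group.

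A wider list of 129 genes of the same pathways (other glutathione transferases, glutathione turnover, glutaredoxins, selenoprotein supply, NADPH supply and NRF2 partners) was counted in the same way. KO vs. WT, 48 of 122 tested genes rose, against 16.1% of all genes, and 28 fell, against 19.0%. KO vs. Ctrl 0 of 121 passed. KO vs. CreCtrl 7 of 121 rose, against 3.60%, and 12 fell, against 12.2%. With all 14 libraries 47 of 124 rose, against 18.5%, and 20 fell, against 17.6%. The median log2 fold changes were 0.28, 0.08, 0.20 and 0.22 in that order. By role in KO vs. WT, partners of superoxide and metals had 10 of 15 higher and 3 lower, selenoprotein supply 6 of 12 higher and 2 lower, and other NRF2 targets and NADPH supply 10 of 35 higher and 11 lower.

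The 8 genes of that list with the smallest adjusted p with all 14 libraries were mostly lower. Txnip, the inhibitor of thioredoxin, measured 456, 502 and 362 CPM in WT and 48.4, 27.7 and 51.1 CPM in KO (log2 fold change -3.51, standard error 0.26, adjusted p = 4.84e-05 by edgeR). It was at 170 and 105 CPM in Ctrl against 35.9 and 56.2 CPM in KO, and at 147 and 165 CPM in CreCtrl against 35.2 and 37.5 CPM in KO, where it fell by 2.14 (adjusted p = 0.00247 by edgeR). Mafk and Maff, small MAF partners of NRF2, fell in KO vs. WT (log2 fold changes of -2.07 and -2.90) and in KO vs. CreCtrl (-1.63 and -2.76). Immediate-early genes moved the same way in all 3 sets, with median log2 fold changes of -3.56, -2.88 and -3.13, and their part in these values was not tested. Gstm2, another mu-class transferase, fell by 1.90 in KO vs. WT. Hpgds (a sigma-class transferase that makes prostaglandin D), Aox1 (aldehyde oxidase) and Slc1a5 (a glutamine transporter) fell there too, with log2 fold changes of -3.67, -3.61 and -2.098.

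Nnt, the mitochondrial transhydrogenase that makes NADPH for glutathione and thioredoxin reduction, was the single one of the 8 that rose. C57BL/6J mice are known to carry a deletion in Nnt. It measured 33.0, 26.2 and 23.4 CPM in WT and 95.8, 88.8 and 108 CPM in KO, a rise of 1.69 on the log2 scale (standard error 0.17, adjusted p = 0.000146 by edgeR). CreCtrl had 52.4 and 52.2 CPM and its KO libraries 142 and 148.7 CPM, a rise of 1.44 (standard error 0.14, adjusted p = 0.0039 by edgeR). The Ctrl libraries, however, had 110 and 127 CPM, close to the 151 and 130 CPM of their KO libraries (log2 fold change 0.25, adjusted p = 0.824 by edgeR). The difference of the KO effect between the WT and Ctrl sets was 1.57 (standard error 0.23, adjusted p = 0.00784 by edgeR). Thus all 9 libraries with Clic4f/f, with or without Cre, lay at 88.8 to 151 CPM and all 5 libraries without floxed alleles at 23.4 to 52.4 CPM. Per geometric mean of the RPE markers these ranges overlapped, at 0.0575 to 0.0946 and 0.0398 to 0.0770.

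Gsto1, an omega-class transferase of the wider list, was singled out after its values were seen. It measured 22.6, 940 and 19.3 CPM in WT and 365, 477 and 149.3 CPM in KO, 363 and 2436 CPM in Ctrl and 5.87 and 5.55 CPM in KO, and 21.1 and 7.81 CPM in CreCtrl and 73.2 and 4.14 CPM in KO. Its libraries spanned 4.14 to 2436 CPM, and WT alone held libraries near 20 CPM and 1 at 940 CPM. None of its log2 fold changes passed (-0.13, -7.93 and 1.35, adjusted p = 0.951, 0.106 and 0.376 by edgeR).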

How the data were processed

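RPE of both eyes of each of 14 mice was sequenced as stranded poly(A) RNA (paired ends, 50 cycles). Alignment by the authors used STAR 2.5.2 and GRCm38, and the values they deposited are raw counts per gene in 1 table. The submitters' processing notes also list bcl2fastq 2.19, Cufflinks 2.1.1 and HTSeq 0.11.2. The annotation release and the strand setting of the counting are not given in the sources used here. Titles gave the groups, and KO libraries were assigned to a set by the style of their titles.

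The 36 genes, the marker lists and the wider list were chosen with earlier results of these data known. Positions came from GENCODE M21, which held 42329 of the 42687 table genes and all 36. Counts were tested with edgeR 4.0.16 in R 4.3.3 (quasi-likelihood, TMM, filterByExpr, Benjamini-Hochberg over all genes of a fit, passed at an adjusted p under 0.05) for KO vs. WT, KO vs. Ctrl, KO vs. CreCtrl, all 14 libraries with the set as covariate, and the difference of KO effects in a fit of 6 groups. Standard errors are the log2 fold change over the root of F. Printed CPM share 1 TMM scaling over 14 libraries, whereas each fit has its own factors, so a ratio of printed CPM can differ from the fitted fold. Exonic overlaps were counted from GENCODE M21, and near-identical transcripts were those at least 95% identical over at least 200 bases. Each library was 1 mouse, and replicates differed by more than sampling noise (chi-square per gene 18.7 to 124 between replicates).

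Full statistics were given for at most 16 of the 36 genes, by smallest adjusted p in the fit with the set among those that passed there, in at least 2 sets or in a difference between sets, and the others more briefly. At most 8 genes of the wider list were named by the same p. DESeq2 1.42.0, RLE factors, library size alone, no filter, the replicate number as a block, all 14 libraries in 1 fit, leaving out each library and leaving out each set were tried. Scripts were tested on simulated counts in which 200 genes changed by 1 or 2 on the log2 scale. The test called 61 of them for KO vs. WT, 15 for KO vs. Ctrl, 20 for KO vs. CreCtrl and 115 with the set. Of those changed by 1, it called 9 for KO vs. WT and 0 for KO vs. Ctrl and KO vs. CreCtrl. A change of that size can thus be missed within a set. The simulation changed 200 genes alone, whereas in the data 35.1% of all genes passed KO vs. WT and 15.8% KO vs. CreCtrl. The simulated counts therefore do not give the power of those comparisons. Totals limit the precision, and the floors cover counting error only.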

Additional observations from a re-analysis of the deposited data

Results flagged for a closer look

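Gclc stood at 116 CPM in KO replicate 2 of the Ctrl set, above the 66.9 to 81.8 CPM of the other 6 KO libraries. Its gap to the nearest of these, 0.695 of the whole range, was over the 95% limit of Dixon's test for 7 values (0.568). The 7 KO libraries were checked for each of the 36 genes, this was the 1 such case, and chance gives about 1 in 20. The controls of that set spanned 71.7 to 106 CPM.

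The KO effect was larger in the WT set than in the Ctrl set for 6 genes by edgeR's test of the difference. The differences were 1.52 for Sod1, 1.16 for Sod2, 1.39 for Cat, 1.25 for Prdx5, 0.95 for Gclm and 2.74 for Gsta4 on the log2 scale. That of Gsta4 has opposite signs in the sets, and Ctrl replicate 2 alone held 986 CPM. Sod1 also differed between the WT and CreCtrl sets, by 1.499. The RPE markers, whose summed level was 16006 to 23748 CPM in WT and 48303 to 59373 CPM in the other controls, moved with these differences, and their part in them was not tested.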

How the results depend on the processing

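Of the 1944 values of single genes under another setting, 1770 stayed on their side of the threshold, 101 were no longer called, 73 became called and 0 calls turned direction, while 71 uncalled values changed sign. KO vs. WT, 18 of the 21 calls held under every alternative (not Prdx6, Gclc and Mgst1), in the fit with the set 2 did (Prdx4 and Gclm) and KO vs. CreCtrl 0 did. By library size alone the median log2 fold change of the 36 genes was 0.17 KO vs. WT, -0.017 KO vs. Ctrl, 0.12 KO vs. CreCtrl and 0.13 with the set, lower as the medians of all genes were too. It was 0.56 KO vs. WT with all 14 libraries in 1 fit. With the set it was 0.17 without the WT set, where 2 genes and 6.14% of all genes passed, and 0.51 without the Ctrl set. Without the filter 3 genes passed KO vs. Ctrl (Sod3, Gpx3 and Slc7a11), 7 KO vs. CreCtrl, 12 for the WT against the Ctrl set, 6 for the WT against the CreCtrl set and 4 for the Ctrl against the CreCtrl set, where 6.92%, 19.5%, 8.29%, 4.04% and 3.24% of all genes did. With DESeq2 these counts were 2, 7, 10, 6 and 0, and the shares of all genes 7.27%, 25.7%, 9.03%, 4.98% and 0.652%. The causes were not tested.

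Leaving out 1 library at a time gave 19 to 23 calls and medians of 0.38 to 0.56 KO vs. WT, 0 to 2 calls KO vs. Ctrl, 1 to 15 calls and medians of 0.16 to 0.47 KO vs. CreCtrl, and 19 to 25 calls with the set. It gave 1 to 9 differences between the WT and Ctrl sets and 0 to 2 between the WT and CreCtrl sets. The share of all genes that passed changed between these fits too. KO vs. WT it was 27.7% to 30% with 1 library left out, against 35.1% with all. Between the WT and Ctrl sets it was 2.06% without KO replicate 2 of the WT set, with 3 of the 36 genes, against 5.15% and 6 genes with all. The swings in these counts are therefore not shown to be particular to the 36 genes. Where 1 library was left in an arm, it was assumed to vary like the others, and calls from such fits are not shown to hold.

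Same-numbered KO and control libraries deviated together weakly (r = -0.016, 0.045 and 0.13 for KO and WT, 0.001 for KO and Ctrl, 0.13 for KO and CreCtrl). In the Ctrl and CreCtrl sets the deviations of the 2 libraries of a group mirror each other. These values therefore cannot tell whether the numbers pair the libraries there. With the replicate block 21 genes passed KO vs. WT (16 higher and 5 lower, with Hmox2 gained and Gclc lost), 1 KO vs. Ctrl (Gpx3), 3 KO vs. CreCtrl (Gpx3 gained and Gclm lost), 19 with the set, 4 for the WT against the Ctrl set and 0 for the WT against the CreCtrl set, where 31.5%, 0.739%, 24%, 30.1%, 2.52% and 0.193% of all genes passed. In the WT set libraries did not all correlate best with their own number.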
